A study of Mus musculus with 14 samples.

Results

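The genes described here write, erase or read chemical marks on histones and DNA, or move nucleosomes, in mouse fibroblasts that lack Ptdsr (current symbol Jmjd6). They were chosen by the array platform's gene symbol: the Kdm, Jmjd and Jarid names, Prmt, Ezh, Setd, Suv, Kat, Hdac, Sirt, Smarc, Chd, Dnmt and Cbx, with Jmjd6 itself left out. Of 9930 genes on the platform 66 carried such a symbol, and 61 of them had a value on at least 10 of the 14 arrays and were tested among 9290 genes. The same rule also names histone genes by their Hist and H2af symbols, but 0 genes on the platform carried one, so no histone gene is a member.

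DNA in the nucleus is wound around histones, and enzymes add or remove methyl and acetyl groups on histone tails to make a stretch of chromatin more or less open to transcription. Acetyltransferases and deacetylases act against each other, as do lysine methyltransferases and demethylases, while chromobox proteins bind methylated histones and remodelling ATPases slide or evict nucleosomes. Jmjd6 encodes a nuclear protein with a JmjC domain, the catalytic fold it shares with most histone lysine demethylases, and its older name records an earlier view of it as a receptor for dying cells.

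Each array compared RNA of Ptdsr-/- fibroblasts in 1 dye with RNA of wild-type (wt) fibroblasts in the other. Replicates 1, 3, 4, 7, 8, 9 and 13 carried Ptdsr-/- RNA in Cy5, and the other 7 replicates carried it in Cy3. The series design names 2 fibroblast cultures without tying an array to either, so p-values measured the spread between arrays, which may be technical. Strain, age, passage and the deleted part of the gene are not given in the labels, and the wild-type RNA has no spread of its own here. Values are given as log2 of knockout over wild type after each array was centred on its median, so a value of 1 is a 2-fold higher ratio.

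The direction knockout over wild type is likely rather than stated. Each array held 1 repeated extreme value, a code that lay 16.6 log2 units from the array's most frequent ratio. Its sign was positive wherever the knockout carried Cy5 (7 of 7 arrays) and negative wherever it carried Cy3 (7 of 7), as it would be if Cy5 had been divided by Cy3 and the swapped arrays turned before deposit. Rank correlations left the question unsettled, since over all genes tested 24 of 49 pairs of opposite dye lay above 0, with a median of -0.00249. Pairs of the same dye also had a median near 0, 0.0048, with 22 of 42 above 0. The lowest Pearson correlation within a dye was -0.214. Over the 61 chromatin genes 19 of 49 pairs of opposite dye lay above 0, from -0.464 to 0.496. Of pairs of the same dye 28 of 42 did, with a median of 0.0316. These values describe, across genes, arrays that may share RNA, which the labels do not give.

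The targeted gene came first as a check of the labels. Jmjd6 had a mean of -0.25 ± 1.04 (SD, n = 14), with a lowest value of -1.34, a median of -0.32 and a highest value of 2.92. It lay below 0 on 12 of 14 arrays, and replicate 2 alone accounted for the highest value. Without that array the fitted mean was -0.50, and with coded extremes kept it was 0.36. Its probes differed, at -0.51 ± 1.14 (SD, n = 14) and, on only 5 arrays, 0.27 ± 1.10 (SD, n = 5). By limma the gene was not called (adjusted p = 0.934), and whether its probes lie in the deleted part is not given. An array held between 13165 and 19615 usable ratios of 20355, with the fewest on replicates 1 and 2. Levels cannot be read from ratios, so the fibroblast identity of the cells could not be checked by its markers. Of 9 measured macrophage markers 1 was called, Lyz2 at -1.62, against 0.0861% of all genes tested. Fitted means of that list ran from -1.62 to 0.13, with a median of -0.29. At an unadjusted p below 0.05 Lyz2 and Cd68, at -0.51, were the 2 lower macrophage markers, against 2.95% lower over all genes. Of 11 fibroblast markers 0 were called and 2 were lower at that p, Dcn at -0.65 and Postn at -0.33. Fitted means of the fibroblast list ran from -0.65 to 0.29, with a median of -0.16. Of 15 proliferation genes 0 were called and 0 had such a p, with a median of 0.08. Their part in the values below was not tested.

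None of the 61 chromatin genes passed the test between knockout and wild-type fibroblasts (limma with Benjamini-Hochberg adjustment over all genes tested, 0 called). Over all genes 0.0861% were called, 8 genes, all lower. At an unadjusted p below 0.05 the count was 1 of 61 chromatin genes against 5.35% of all genes. It was lower in the knockout, as were 2.95% of all genes, while 0 of 61 were higher against 2.4%. Ranges over the genes or a class are of fitted means, in which limma weights both dye orientations equally, while a mean with its SD is the plain mean over arrays. The fitted means of the chromatin genes ran from -0.98 to 0.34, with a median of 0.009, and 33 of 61 lay above 0. Over all genes tested the median was 0.002 and 50.4% lay above 0.

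The interval of each mean reflects the spread between arrays, which may be technical, so it does not bound a change between cultures. For the targeted gene, Jmjd6, the 95% interval ran from -0.82 to 0.32. For 32 of the 61 the 95% interval lay wholly within a 1.5-fold change either way, against 42.6% of all genes tested, and for 52 it lay within a 2-fold change, against 81.1%. The median distance from the mean to either end of the interval was 0.43 for the chromatin genes and 0.46 over all genes. The other 9, whose interval reached beyond a 2-fold change, were Kat2b, Prmt9, Hdac6, Kdm5c, Setd4, Chd8, Smarcal1, Smarcd2 and Smarce1. Smarcd2 had the widest spread of the 61, with values from -4.74 to 4.75.

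**Figure D1:**
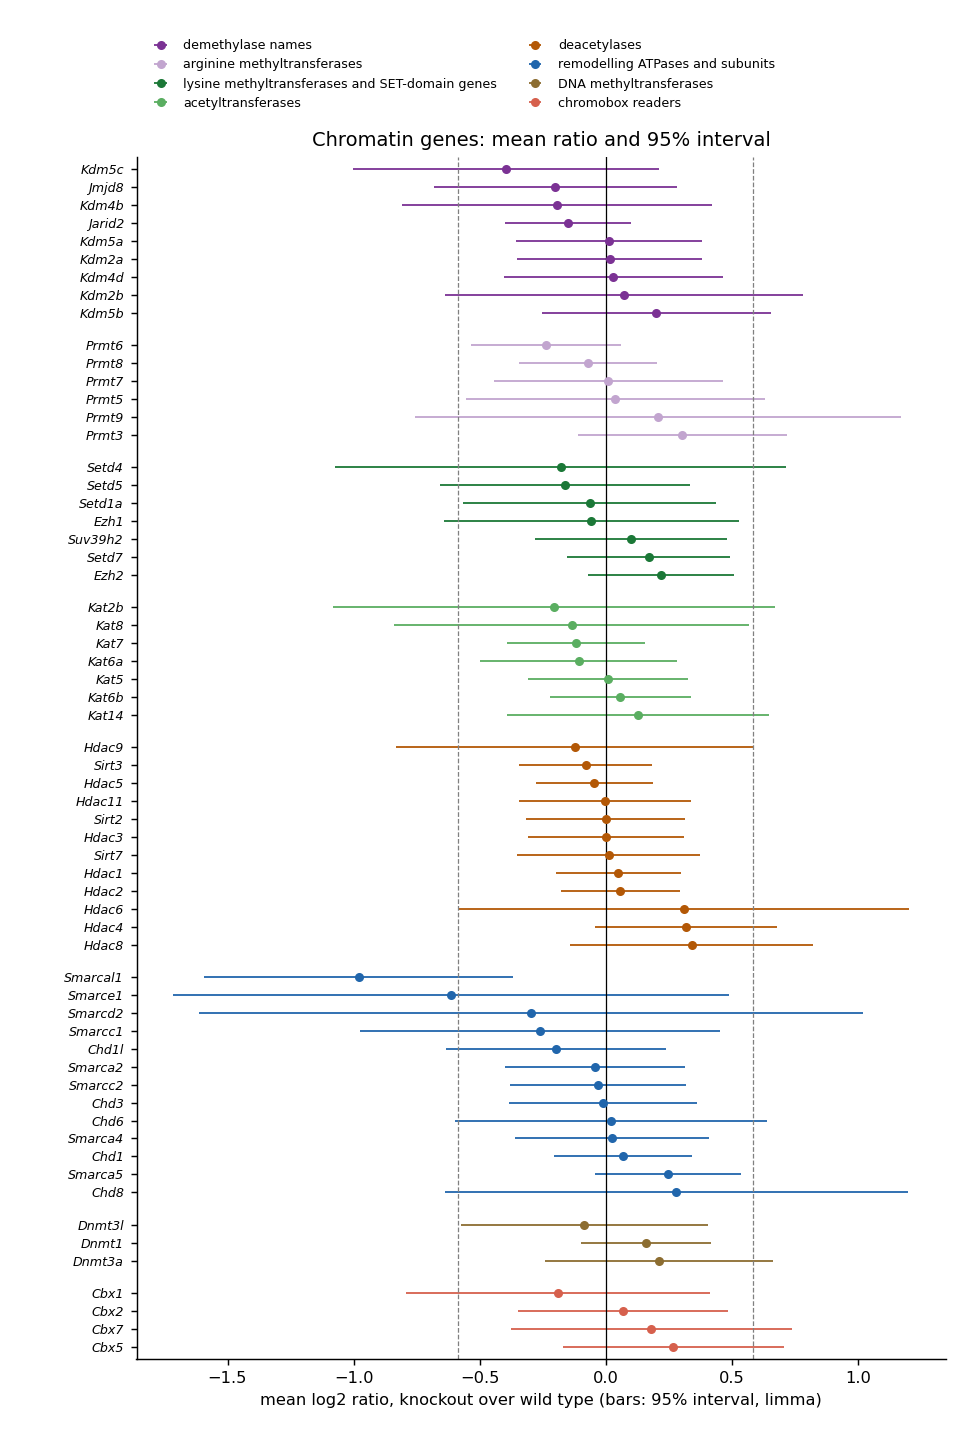
Mean log2 ratio of knockout over wild type (x axis) for the 61 tested chromatin genes, grouped by class and ordered by mean within a class. Points are means from limma over 10 to 14 arrays, bars are 95% intervals, and dashed lines mark a 1.5-fold change either way. Smarcal1 is the gene whose interval does not reach 0.

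The demethylase names, a class set by symbol and not by likeness to Jmjd6, were all measured (9 of 9) and 0 were called. Their fitted means ran from -0.40 to 0.20, with a median of 0.01. Kdm5a, Kdm5b and Kdm5c encode demethylases that remove the methyl mark of active promoters. Kdm5a lay at 0.01 ± 0.61 (SD, n = 14), with a 95% interval from -0.36 to 0.38. Kdm5c lay at -0.40 ± 1.11 (SD, n = 14), below 0 on 10 of 14 arrays, from -3.25 to 1.84 with a median of -0.15. Its extremes came from replicate 2 and replicate 10, both with the knockout in Cy3, and it did not pass (adjusted p = 0.903, limma). Without replicate 2 its fitted mean was -0.17, and with the swapped arrays turned it was 0.08.

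Kdm5b lay at 0.20 ± 0.88 (SD, n = 14, adjusted p = 0.934, limma), and at -0.38 with the swapped arrays turned. Its 3 probes differed. A probe with 13 values had a mean of 0.72 ± 1.18, a probe with 14 values and a narrower spread had a mean of -0.02 ± 0.40, and a probe with 7 values had a mean of -0.32 ± 2.16 (SD).

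Kdm2a and Kdm2b encode demethylases that bind unmethylated CpG DNA. The 3 probes of Kdm2a lay between -0.003 and 0.031, and its gene mean was 0.02 ± 0.62 (SD, n = 14). Replicate 2 held its lowest value, -1.91, while the other arrays lay between -0.34 and 0.76. Kdm2b stood at 0.05 ± 1.28 (SD, n = 13), with values from -2.52 to 3.08 that reach past a 2-fold change in either direction.

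Kdm4b and Kdm4d encode demethylases that act on marks of silent chromatin. Kdm4b had a mean of -0.19 ± 1.13 (SD, n = 14) and Kdm4d of 0.04 ± 0.71 (SD, n = 13). Jarid2, which carries a JmjC domain without demethylase activity and guides a Polycomb complex to its targets, was among the best measured. Its values ran from -0.68 through a median of -0.16 to 0.36, with a mean of -0.15 ± 0.34 (SD, n = 14) and a 95% interval from -0.40 to 0.10, and without replicate 1 its fitted mean was -0.10. Jmjd8, a JmjC protein of the endoplasmic reticulum, stood at -0.20 ± 0.86 (SD, n = 14). Below 0 on 9 of 14 arrays each, neither Jarid2 nor Jmjd8 passed (adjusted p = 0.906 and 0.934, limma).

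Arginine methyltransferases transfer methyl groups to arginines, the residue class on which a demethylase activity of Jmjd6 has been proposed. Of 7 by symbol 6 were tested and 0 were called, with fitted means from -0.24 to 0.30. Prmt6, a nuclear enzyme that methylates histone tails, lay at -0.24 ± 0.45 (SD, n = 14), below 0 on 9 arrays, with a lowest value of -0.94 and a highest of 0.66. Its means were alike in both dye orientations, -0.25 in the Cy5 orientation of the knockout and -0.22 in the Cy3 orientation. Prmt3, a cytosolic enzyme, lay at 0.30 ± 0.68 (SD, n = 13), above 0 on 9 arrays, with its highest value of 2.07 on replicate 2, without which its fitted mean was 0.15. Prmt8, an enzyme of the plasma membrane known from brain, had the narrowest spread of the class, at -0.07 ± 0.38 (SD, n = 14). All 3 had adjusted p of 0.903 or more by limma.

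Among the lysine methyltransferases and SET-domain genes 7 of 7 were tested and 0 called, with fitted means from -0.18 to 0.22. Ezh2, the catalytic subunit of a Polycomb repressive complex, lay at 0.22 ± 0.39 (SD, n = 13), above 0 on 9 arrays and below 0 on 4. Its 95% interval ran from -0.07 to 0.51, which lies within a 1.5-fold change. Setd4, a little studied SET-domain gene, ranged from -3.07 to 3.98 around a mean of -0.22 ± 1.68 (SD, n = 13).

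The acetyltransferases were tested for 7 of 7 genes, with 0 called and fitted means from -0.20 to 0.13. Kat7, which acetylates histones at replication origins, was the best measured of them at -0.12 ± 0.34 (SD, n = 13). Kat2b, a coactivator acetyltransferase, had a mean of -0.20 ± 1.72 (SD, n = 14). It ranged from -4.36 on replicate 6 to 2.15 on replicate 11, both arrays with the knockout in Cy3, and 8 of its 14 values lay above 0.

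Deacetylases were the most evenly measured class, with a median residual SD of 0.50 between arrays against 0.80 over all genes tested. Of 13 by symbol 12 were tested and 0 called, and 8 had an interval within a 1.5-fold change. Hdac5, which shuttles between nucleus and cytoplasm, had the narrowest spread of all 61 genes at -0.04 ± 0.28 (SD, n = 14), with values from -0.58 to 0.33. That is the spread of an average of 3 probes, whose own SDs were 0.52, 0.53 and 0.58. Hdac1 and Hdac2, the catalytic subunits of the main nuclear corepressor complexes, stood at 0.05 ± 0.32 and 0.06 ± 0.31 (SD, n = 14 each). Their 95% intervals, from -0.20 to 0.30 and from -0.18 to 0.29, lie within a 1.5-fold change.

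Hdac4 and Hdac8 lay above 0 on average without passing. In the Cy5 orientation their means were 0.60 and 0.69, and in the Cy3 orientation 0.03 and -0.01. Hdac8, a deacetylase of the cohesin ring, lay at 0.37 ± 0.88 (SD, n = 13, adjusted p = 0.903, limma), with its highest value of 2.58 on replicate 1 and a median of 0.14. Without replicate 1 its fitted mean was 0.18 in place of 0.34. Hdac4, a signal-responsive deacetylase, lay at 0.34 ± 0.54 (SD, n = 11, adjusted p = 0.903, limma). It was above 0 on 7 of 11 arrays, and its highest value, 1.55, was again on replicate 1. With coded extremes kept its fitted mean was -1.09, on 12 arrays. The sirtuin genes Sirt2, Sirt3 and Sirt7, which encode NAD-dependent deacetylases, had means of 0.00, -0.08 and 0.01.

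The remodelling genes held the member with the smallest p. Smarcal1 encodes a helicase of the remodelling ATPase family that re-anneals DNA strands at stalled replication forks. It had values on 10 arrays, the fewest the filter allows, and lay below 0 on all 10, from -2.65 through a median of -0.66 to -0.04. With the knockout in Cy5 the values were -0.66 (replicate 4), -0.43 (replicate 7), -0.44 (replicate 8) and -2.32 (replicate 13), and with it in Cy3 they ran from -2.65 (replicate 11) to -0.04 (replicate 5). The orientations therefore overlapped, at means of -0.96 ± 0.91 (SD, n = 4) and -0.99 ± 0.93 (SD, n = 6).

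The mean of Smarcal1 was -0.98 ± 0.87 (SD, n = 10), a 1.97-fold lower ratio, with a 95% interval from -1.59 to -0.37. The unadjusted p was 0.00469 and the adjusted p 0.669 (limma), so the gene was not called. Values on a single side of 0, all of them below, were found for 0.205% of all genes tested, and all above for 0 of 61 chromatin genes against 0.0323%. Those shares pool genes with 10 to 14 values, and fewer values fall on a single side more easily. They are therefore no like measure for a gene with 10 values that was named for its small p. The value of Smarcal1 is that of 1 probe, so no second probe could be set beside it. Without replicate 13 the mean was -0.75 and without replicate 11 it was -0.81. If the swapped arrays had not been turned before deposit, its mean would be 0.01.

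The other remodelling genes had fitted means between -0.61 and 0.28. Smarca5, the ATPase of the ISWI remodellers, stood at 0.25 ± 0.58 (SD, n = 14), above 0 on 9 arrays (adjusted p = 0.903, limma). Smarca4 and Smarca2, the alternative ATPases of the SWI/SNF complex, stood at 0.02 ± 0.63 (SD, n = 12) and -0.04 ± 0.60 (SD, n = 14). Their probes lay on both sides of 0. The 2 probes of Smarca4 had means of -0.28 and 0.33, and the 3 of Smarca2 ran from -0.26 to 0.22. Smarce1, a DNA-binding subunit of that complex, had a mean of -0.57 ± 1.90 (SD, n = 11) and a fitted mean of -0.61, with values from -3.29 on replicate 1 to 3.34 on replicate 2. Those arrays have opposite dyes and the most missing values. The fitted mean was -0.34 without replicate 1, -0.36 without replicate 12 and -0.96 without replicate 2. With coded extremes kept it was -1.80, on 12 arrays. Chd1, a remodeller bound to active promoters, was the best measured of the class at 0.08 ± 0.36 (SD, n = 13).

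DNA methyltransferases and chromobox readers had 0 called of 3 and of 4 tested. Dnmt1, which copies DNA methylation after replication, lay at 0.16 ± 0.35 (SD, n = 14), above 0 on 11 of 14 arrays, with a 95% interval from -0.10 to 0.42, and without replicate 7 its fitted mean was 0.10. Dnmt3a, which sets new methylation, lay at 0.21 ± 0.80 (SD, n = 14), and its 5 probes had means between 0.01 and 0.76. Cbx5, a heterochromatin protein, had a mean of 0.27 ± 0.77 (SD, n = 14) with values from -1.44 to 1.11, above 0 on 9 arrays, and its fitted mean was 0.42 without replicate 10. Cbx2, a Polycomb reader, lay at 0.09 ± 0.62 (SD, n = 11).

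**Figure D2:**
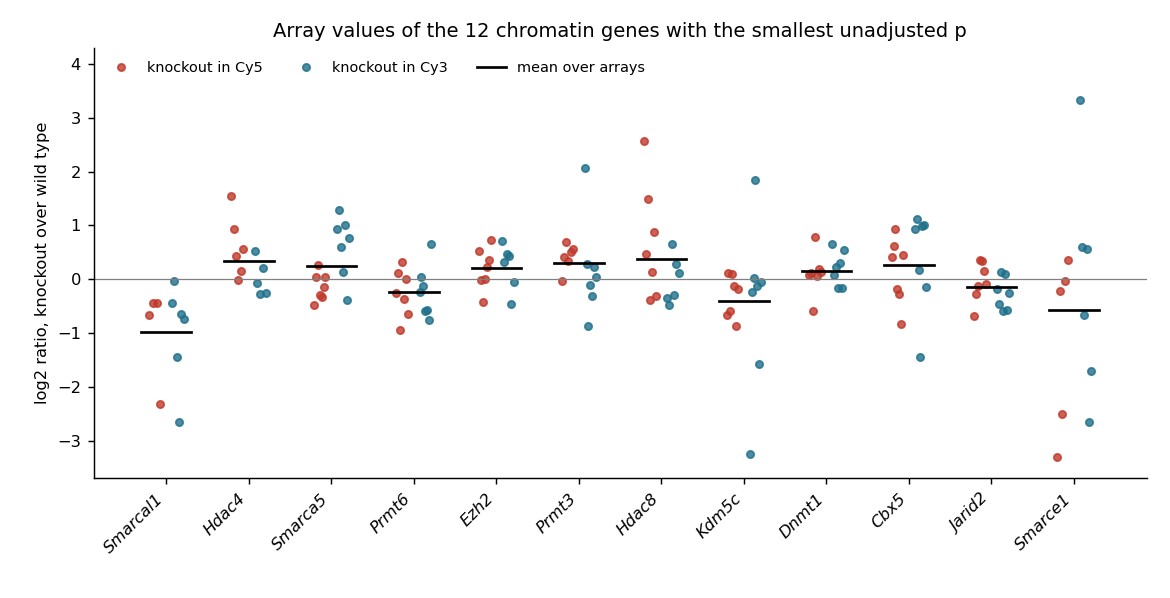
Log2 ratio of knockout over wild type (y axis) on every array for the 12 chromatin genes with the smallest unadjusted p, in order of p. Points are arrays, coloured by the dye of the knockout, and bars are means over the arrays. All 10 Smarcal1 values lie below 0, while the other 11 genes have arrays on both sides of 0.

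Members with fewer arrays were not tested and had wide ranges. Chd4, the ATPase of the NuRD corepressor complex, had 8 values from -2.32 to 3.14. Smarcb1, a core SWI/SNF subunit, had 7 values with a median of -1.58 and a range from -3.33 to 0.78. Prmt1, the main arginine methyltransferase of most cells, had 9 values from -1.58 to 2.77, while Sirt4 had 8 and Smarcd1 7, each on both sides of 0. At the edge of the filter, Smarcal1 and Chd8 had 10 values each.

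The dye term asked whether a gene's ratio differed between the orientations. It was called for 0 of the 61 chromatin genes, against 0.0431% of all genes tested. At an unadjusted p below 0.05 it was found for 5 of 61 (8.2%), against 7.42% of all genes. The ratio was higher in the Cy5 orientation for 1 of them, against 2.79% of all genes, and higher in the Cy3 orientation for 4, against 4.63%. Suv39h2, which methylates histones in heterochromatin, had the smallest p among them. Its values were below 0 on each of the 7 arrays in the Cy5 orientation, from -0.98 to -0.02, and above 0 on 5 of 6 with it in Cy3, from -0.39 to 1.94. The means were -0.52 ± 0.30 (SD, n = 7) and 0.71 ± 0.86 (SD, n = 6), with a dye adjusted p of 0.473 (limma). The probes of Suv39h2 had means of -0.41 and 0.52, on opposite sides of 0, with the probe at 0.52 showing the smaller dye p (0.007 against 0.137, limma).

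Ezh1, the counterpart of Ezh2 in resting cells, followed with -0.92 ± 0.83 (SD, n = 5) in Cy5 and 0.81 ± 1.09 (SD, n = 7) in Cy3. Hdac6, a cytoplasmic deacetylase of tubulin, stood at -0.68 ± 1.49 (SD, n = 6) and 1.30 ± 1.80 (SD, n = 7). Smarca5 stood at -0.13 and 0.62. Prmt5, which makes symmetric dimethylarginine, ran the other way at 0.81 ± 1.16 (SD, n = 5) and -0.74 ± 0.77 (SD, n = 6). Each of these genes has opposite signs in the orientations. Under the reading in which swapped arrays still need turning, these 5 genes and not Smarcal1 would hold the unadjusted p below 0.05, and 0 would be called.

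**Figure D3:**
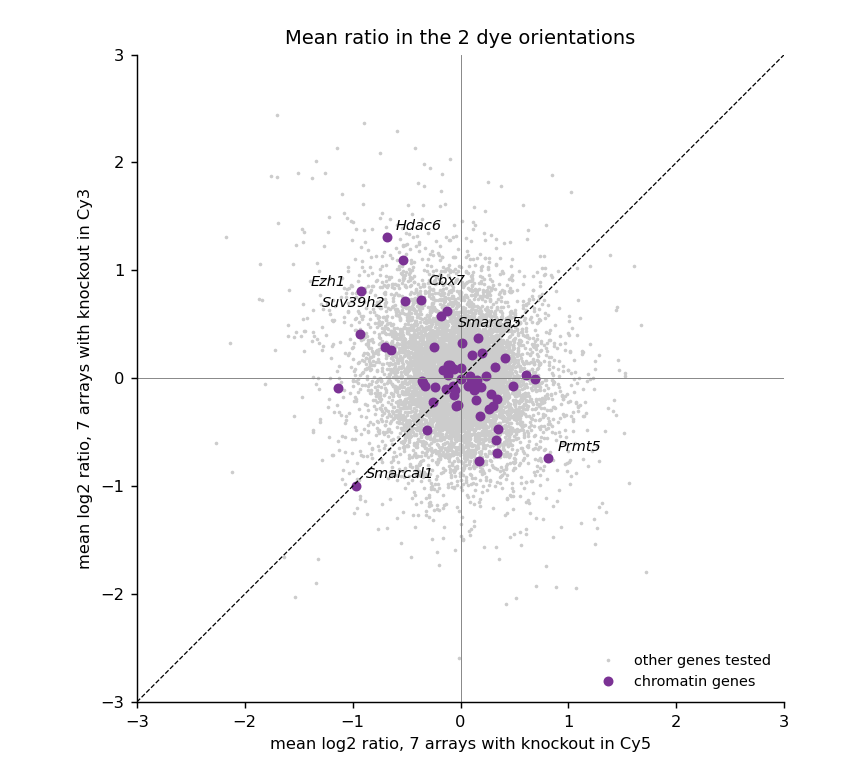
Mean log2 ratio over the arrays with the knockout in Cy5 (x axis) and in Cy3 (y axis) for the 61 chromatin genes (purple) and the other genes tested (grey). The dashed line marks equal means. Smarcal1 lies on it near -0.96 and -0.99, and Suv39h2, Ezh1, Hdac6, Cbx7 and Smarca5 lie upper left of it, with Prmt5 on the other side.

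Several probes existed for 22 of the members on at least 10 arrays each. For 15 of the 22 the probe means lay on both sides of 0, and the distance between the lowest and the highest probe mean had a median of 0.39. Probe means close to 0 count among the 15, as for Sirt2 with -0.002 and 0.003. Neither figure was set beside that of all genes with several probes, so neither is a trait of the chromatin genes. Suv39h2 had the widest distance, 0.93, followed by Kat2b at 0.82 and Dnmt3a at 0.75. Setd5, at 0.005, Sirt2, at 0.005, and Kdm2a, at 0.034, had probes in closest agreement. Probe positions within the transcripts are not given, so isoforms and related genes could not be told apart.

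**Figure D4:**
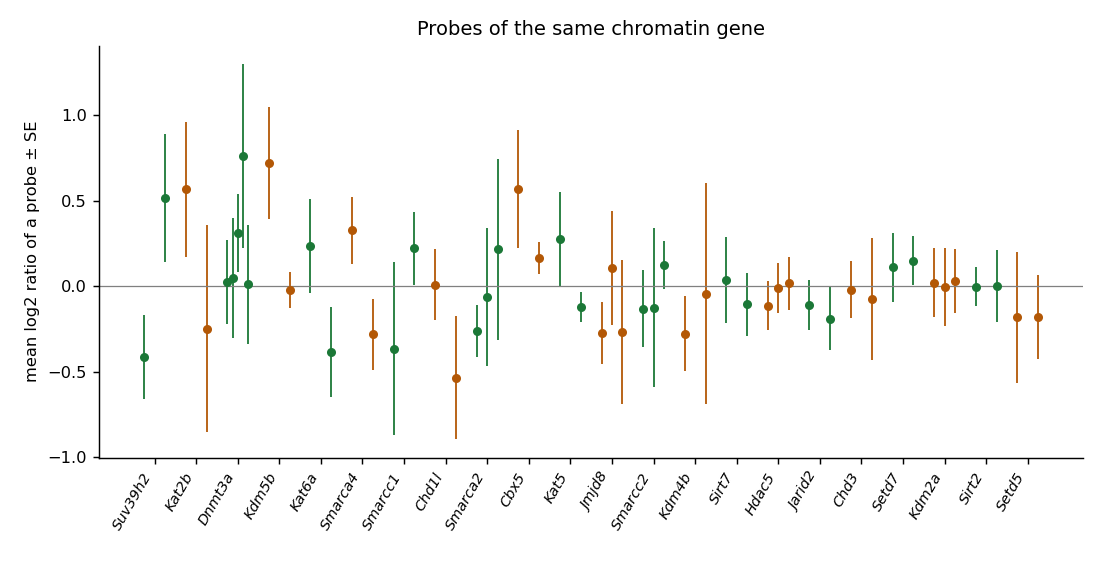
Mean log2 ratio ± SE over arrays (y axis) of every probe with at least 10 values, for the 22 chromatin genes with several such probes, ordered by the distance between their probe means. Points of the same gene stand side by side in 1 colour. Distances run from 0.93 for Suv39h2 to 0.005 for Setd5.

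The spread of the chromatin genes differed between arrays. Their median lay between -0.12 and 0.16 on every array. On replicates 1 and 2 they lay more than 2-fold from the array's median for 40.8% and 37.5% of measured members, against 35.7% and 42.2% of all genes tested. On replicate 8 the shares were 8.33% and 7.25%. The share was larger for the chromatin genes than for all genes on 5 arrays and smaller on 9. Replicate 14 had the widest gap, 6.67% against 18%.

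**Figure D5:**
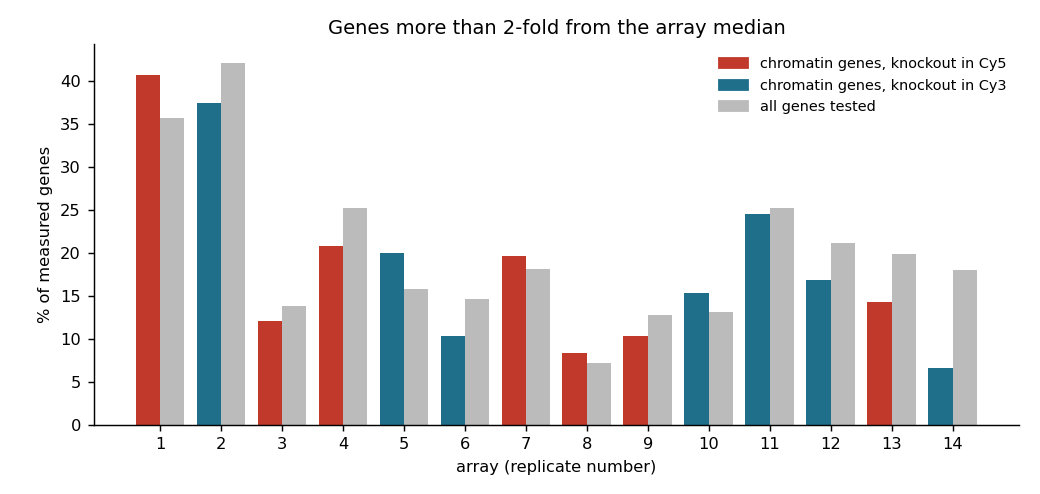
Share of measured genes (y axis, percent) whose ratio lay more than 2-fold from the array median, for each array by replicate number. Coloured bars are the tested chromatin genes, by dye of the knockout, and grey bars are all genes tested. Replicates 1 and 2 have the highest shares in both sets, from 35.7% to 42.2%.

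Further genes of the same machinery, from lists by name, were read beside the members. Counts at an unadjusted p below 0.05 in these lists stand beside 2.4% higher and 2.95% lower over all genes tested. Histone modifiers and cofactors under other symbols had 0 of 16 called, with 1 higher at an unadjusted p below 0.05. That was Dot1l, a lysine methyltransferase without a SET domain, at 0.33 ± 0.55 (SD, n = 13). Nsd2, a SET-domain methyltransferase, stood at 0.32 ± 0.73 (SD, n = 14). Polycomb, corepressor and reader subunits had 0 of 29 called and 1 lower at an unadjusted p below 0.05, Trim33, at -0.35 ± 0.55 (SD, n = 14). Brd8, a bromodomain protein, followed at -0.40 ± 0.78 (SD, n = 14).

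Histone chaperones and chromosomal proteins had 0 of 24 called, with 2 higher at an unadjusted p below 0.05 and a median of 0.13. Set, a chaperone and inhibitor of histone acetylation, lay above 0 on 13 of 14 arrays, from -0.09 through a median of 0.40 to 0.80. Its mean was 0.38 ± 0.27 (SD, n = 14), with 0.42 in Cy5 and 0.34 in Cy3, an unadjusted p of 0.00325 and an adjusted p of 0.591 (limma). Hmgb3, a DNA-bending protein, stood at 0.79 ± 1.38 (SD, n = 12), with values of 3.07 on replicate 2 and 3.79 on replicate 11. Other remodelling subunits had 0 of 15 called, with Ss18 higher and Btaf1 lower at an unadjusted p below 0.05. Btaf1, an ATPase that removes TATA-binding protein from DNA, was below 0 on 9 of 10 arrays at -0.64 ± 0.65 (SD, n = 10, adjusted p = 0.832, limma). Ss18, a SWI/SNF subunit, had a mean of 0.67 ± 1.66 (SD, n = 12, adjusted p = 0.832, limma) that hides opposite values in the dye orientations.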

How the data were processed

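The authors deposited log2 ratios of both channels for 20355 probes on 14 two-colour arrays. The sources used here do not give how arrays were scanned and normalized. Base and direction were read from the values. Ratios carry no spot intensity, so signal over background is unknown and the number of arrays limits precision. Coded extremes (absolute value above 12) were set to missing, arrays centred on their medians, and probes with 1 gene symbol in GEO's platform annotation (14030, with 5 carrying several and 6320 unnamed here) averaged per gene. Genes on at least 10 arrays were tested with limma 3.58.1 in R 4.3.3 (lmFit, eBayes). The model held an intercept, tested against 0, and a dye term of +1 or -1. Genes were called at a Benjamini-Hochberg adjusted p below 0.05 over all genes. The model was also run on simulated data with independent normal noise and no dye effect. That run did not cover dye effects, correlated arrays or outlying arrays. Means with SDs are over arrays; fitted means and intervals are from the model. Each of the 28 alternatives varied 1 planned choice; fits on fewer arrays also lowered the number of arrays a gene needed, and fits on a single dye had no dye term.

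Members and lists were chosen with earlier results of these data known. Genes named are Jmjd6, the 12 members with the smallest p, the 6 with the smallest dye p, the largest mean and smallest residual SD per class, all demethylase names, and 2 genes with the smallest p per list. All other genes in the text (Hdac1, Hdac2, the sirtuins, Smarca2, Smarca4, Setd4, Setd5, those listed by interval width, untested members) were chosen after their values were seen.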

Additional observations from a re-analysis of the deposited data

Results flagged for a closer look

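Ss18, the SWI/SNF subunit from the list of other remodelling subunits, differed between the dye orientations by a test of that difference. Its mean was -0.75 ± 0.72 (SD, n = 6) in the Cy5 orientation of the knockout and 2.09 ± 0.83 (SD, n = 6) in the Cy3 orientation, a difference of -2.84 (limma, dye adjusted p = 0.0453). With the knockout in Cy3 all 6 values were above 0, from 0.76 on replicate 6 to 2.97 on replicate 14, and with it in Cy5 5 of 6 were below 0, the exception being 0.27 on replicate 13. It was 1 of 4 genes with a called dye term among 9290. With 1 array left out the dye call held without replicate 6 or replicate 13 and was lost without any 1 of the other 12 (dye adjusted p from 0.0245 to 0.172, limma). It was also lost with values on 7 or more arrays (0.0539), without replicates 1 and 2 together (0.069), with coded extremes kept (0.0826), with arrays scaled to a common spread (0.129), with a random block for number range and dye (0.241) and with a robust, trended prior variance (0.252). The value is that of 1 probe.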

How the results depend on the processing

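Under all 28 alternatives 0 chromatin genes were called by limma, with a smallest adjusted p of 0.473, for Suv39h2 with the swapped arrays turned. The count at an unadjusted p below 0.05, 1 of 61, was 5 with those arrays turned (1 higher, 4 lower), 0 of 31 with values on all 14 arrays, which leaves Smarcal1 out, 4 of 62 with the knockout in Cy5 alone, 5 of 61 with it in Cy3 alone and 2 of 91 when probes were tested singly. Over all genes or probes the shares were 7.42%, 7.31%, 6.01%, 6.88% and 5.05% in that order. Leaving out 1 array gave 1 to 3. The count for the dye term, 5, was 1 with the arrays turned and 1 with values on all 14 arrays, and 4 to 8 on leaving out 1 array. The median of the means ran from -0.018 to 0.037 on leaving out 1 array. Under each alternative it moved by less than 0.082, the SD of the chromatin-gene median between single arrays. That is a wide yardstick for means over arrays. Turning gave Ss18 a mean of -1.42 (adjusted p = 0.0453), which repeats its dye test. Genes called overall numbered 8, and 4 with arrays turned, 5 with a random block for dye and number range (ranges that are no labelled groups), and 0 with a robust, trended prior variance or with either dye alone, where 14 (Cy5) and 18 (Cy3) members had an interval within 1.5-fold. The causes were not tested. Spot intensity is unknown, and wide spreads limit what 14 arrays can show. Knockout and wild-type RNA were paired within each array, and the tests used that ratio. No further pairing between arrays is labelled, and all arrays form 1 group.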

Other observations

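Histone genes were not members by symbol, because the platform annotation carries their newer names. Through former symbols in RefSeq 16 were found on the platform and 15 were tested, a list added after the symbols had been seen. By limma 0 were called and 0 had an unadjusted p below 0.05, with fitted means from -0.61 to 0.34 and a median of 0.02. The variant histone genes Macroh2a1, at 0.13 ± 0.36 (SD, n = 14), and H2aj, at -0.004 ± 0.35 (SD, n = 14), had narrow spreads, with 95% intervals from -0.12 to 0.37 and from -0.26 to 0.26. H2bc22 lay at -0.11 ± 0.33 (SD, n = 14). H2az1, a promoter-associated variant, ranged from -3.12 to 2.93 around a mean of 0.18 ± 1.51 (SD, n = 14). The linker histone gene H1f2 lay at -0.59 ± 1.60 (SD, n = 12), below 0 on 7 of 12 arrays. Histone genes resemble each other closely in sequence, and cross-hybridisation between them was not measured. These 5 genes were named after their values were seen.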
